A study of Mus musculus with 6 samples.

Results

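The genes described here are the 7 insulin-like growth factor (IGF) binding protein genes of the mouse named Igfbp1 to Igfbp7. They were taken by symbol from a table of 24964 genes, and all 7 were found in it. Expression was measured by RNA-seq in uterine luminal epithelium (the lining of the uterine cavity), cut out by laser capture on pregnancy day 4. Both groups of 3 samples came from females with floxed Foxo1 alleles (Foxo1f/f), kept on normal chow with littermates until 8 weeks of age before mating with stud males. The control females carried no Cre (Foxo1ff, the controls below). The other females also carried a single copy of Cre inserted at the progesterone receptor gene (Pgrcre/+Foxo1f/f, called Foxo1dd). Cre from this locus is made wherever the progesterone receptor gene is active, which in the uterus includes stroma and muscle as well as epithelium, and the insertion itself is present only in the Foxo1dd group. The labels call the samples bioreplicates and say nothing of the number of animals they came from, so the p-values below speak only for the spread among these samples, which may be technical.

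IGF binding proteins are secreted proteins that hold IGF1 and IGF2 outside the cell. They lengthen the life of the ligands, carry them, and decide how much reaches the IGF1 receptor, and proteases that cut them free the ligand again. IGFBP1 to IGFBP6 bind IGFs tightly, whereas IGFBP7 binds them weakly. In the uterus IGFBP1 is best known as a product of the decidualized stroma, and its gene is a textbook target of FOXO factors, which insulin signalling through AKT keeps out of the nucleus. The comparison asked how these genes differ in the luminal epithelium when Foxo1 is deleted.

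Levels are FPKM, the reads of a gene divided by its length and by the depth of the library, so levels may be compared between genes. Summed FPKM per sample ran from 552190 to 667499, and the step between low values of short RNA genes gave divisors of about 74000000 to 98800000 reads. Foxo1dd 2 stood apart from the other libraries, with 13995 genes above 0 against 15474 to 16062, and with the highest Rn45s, a ribosomal RNA precursor, at 40296 FPKM against 23715 to 31304. Foxo1 was at 111 to 160 FPKM in the controls and at 0.942 to 1.72 FPKM in Foxo1dd, while Pgr, the locus of the insertion, was at 1.64 to 2.44 against 28.3 to 36.2 FPKM. The 15 luminal and pan-epithelial markers summed to 3227 to 4293 FPKM in the controls and 4943 to 5894 FPKM in Foxo1dd. Of these 8 rose, among them the keratin genes Krt8 and Krt19 and the receptor gene Lpar3, and Epcam and Cdh1 fell. By the test described below 66.7% of the 15 were called changed, against 56.4% of all tested genes. The defining stromal marker Pdgfra and the muscle markers Acta2 and Myh11 stayed at or below 1.33 FPKM, but other genes of these lists were higher. From the stromal list Nr2f2 was at 20.7 to 31.4 FPKM, and Vim and Col3a1 reached 6.21 and 6.67 FPKM. From the muscle list Tagln reached 2.46 FPKM.

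Of the 7 genes, Igfbp3, Igfbp1 and Igfbp7 were lower in Foxo1dd, Igfbp4 and Igfbp5 were higher, and Igfbp2 and Igfbp6 lay near 0 in both genotypes. Genes were tested with limma as log2(FPKM + 1) when their mean over the 6 samples reached 1 FPKM, and a call needed a p under 0.05 after Benjamini-Hochberg adjustment over all 11427 genes tested. By that rule 5 of the 7 were tested and 5 called, 3 lower and 2 higher. Calls were frequent among all tested genes, at 56.4% in either direction, 34.2% lower and 22.2% higher. The excess of lower calls depends on the scaling: 39.3% of the calls were higher as deposited, 47.3% under median-of-ratios scaling and 49.1% under quantile normalization. For the same 5 members the group ranges were separate, as for 64.2% of all tested genes (39.0% lower and 25.3% higher). The share of calls says little about the family for this reason, and because Igfbp1 passed the minimum only through its Foxo1ff level and Igfbp5 only through its Foxo1dd level. The sizes of the changes are therefore given gene by gene, on the log2(FPKM + 1) scale, where changes of low genes come out too small.

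**Figure D1:**
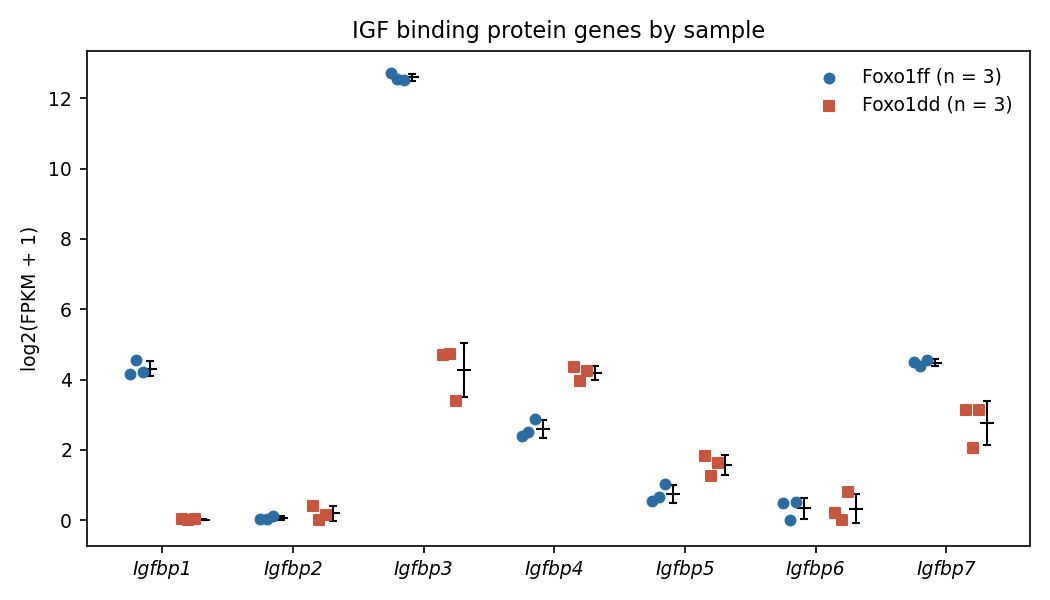
The vertical axis is log2(FPKM + 1) and each point is 1 sample, with circles for Foxo1ff and squares for Foxo1dd. Black marks beside the points are the group mean and SD (n = 3). Igfbp3 stands above every other gene in Foxo1ff and falls to the level of Igfbp4 in Foxo1dd, while Igfbp2 and Igfbp6 overlap between the groups.

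Igfbp3, the main IGF carrier of the circulation, was the dominant member. It lies on the minus strand of chromosome 11 (7206086 to 7213923, mm10) and overlaps exons of no other annotated gene. Its level was 6722, 6055 and 5878 FPKM in the Foxo1ff samples and 25.0, 25.4 and 9.39 FPKM in the Foxo1dd samples. The control samples lay close together and far above the others, and in each of them Igfbp3 ranked 5 among all 24964 genes, against ranks of 3377 to 6954 in Foxo1dd. The group means of 6218 ± 445 and 19.9 ± 9.13 FPKM (SD, n = 3 each) differed 312-fold, giving a log2 change of -8.33 (SE 0.32, adjusted p = 2.44e-07 by limma). Only 2 tested genes had a larger fall in log2 change with 1 FPKM added. That rank depends on the added constant, which shrinks the falls of genes near 0 in Foxo1dd. Foxo1dd 3 had less than either of the other Foxo1dd libraries, and without it the log2 change was -7.89 (limma adjusted p = 2.44e-08). Without Foxo1dd 2 the log2 change was -8.56 (limma adjusted p = 7.79e-07).

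Igfbp1, the binding protein whose gene responds to insulin and fasting in liver, is the chromosomal partner of Igfbp3. It lies on the plus strand (chromosome 11, 7197782 to 7202546), and the 2 genes point at each other with 3.54 kb between their ends. Igfbp1 had 17.0, 22.5 and 17.5 FPKM in Foxo1ff. In Foxo1dd it was listed at 0.0170, 0 and 0.0150 FPKM. Converted with the length of its annotated exons, 1525 bases, these values equal about 2.0, 0 and 1.9 reads against 2203.1 to 3389.6 reads in the controls, so Foxo1dd was at the limit of detection and no ratio is given. The log2 change was -4.30 (SE 0.17, 3 samples per group, adjusted p = 3.15e-07 by limma). Since the Foxo1dd values sit near 0, its size follows the constant that is added, and with 0.1 FPKM in place of 1 it was -7.42. Without Foxo1dd 2 it was -4.29. In the control epithelium Igfbp3 exceeded Igfbp1 by 269 to 395 times.

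The sequences before the start sites of these neighbours, and of Igfbp4 as the member with the larger rise, are shown because FOXO factors bind short A-rich words and the data bear on the loss of such a factor. Each is the 250 bases before the RefSeq start (GRCm38.p6), read 5′ to 3′ on the gene's own strand, from chr11:7197537-7197786 (plus) for Igfbp1, chr11:7213924-7214173 (minus) for Igfbp3 and chr11:99040994-99041243 (plus) for Igfbp4. Capitals mark matches on either strand to CAAAACA, to its close variant CAAAATA, or to the forkhead consensus GTAAACA.
Igfbp1: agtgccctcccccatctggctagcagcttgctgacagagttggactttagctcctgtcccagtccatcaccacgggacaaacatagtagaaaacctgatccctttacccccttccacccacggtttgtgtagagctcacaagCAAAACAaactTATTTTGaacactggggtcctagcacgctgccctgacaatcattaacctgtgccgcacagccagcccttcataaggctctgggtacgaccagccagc
Igfbp3: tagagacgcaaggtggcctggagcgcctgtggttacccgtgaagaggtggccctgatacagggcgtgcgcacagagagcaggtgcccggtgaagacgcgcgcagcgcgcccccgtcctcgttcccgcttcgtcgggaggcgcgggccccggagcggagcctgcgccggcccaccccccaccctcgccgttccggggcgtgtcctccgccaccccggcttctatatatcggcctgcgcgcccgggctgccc
Igfbp4: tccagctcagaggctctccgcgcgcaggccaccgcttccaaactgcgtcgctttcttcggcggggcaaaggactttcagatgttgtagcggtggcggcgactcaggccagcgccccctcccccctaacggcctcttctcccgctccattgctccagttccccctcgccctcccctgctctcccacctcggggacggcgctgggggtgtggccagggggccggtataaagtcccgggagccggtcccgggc

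Igfbp1 was the single member with any of the 3 words in this window. Counting back from -1, the base before the start, CAAAACA begins at -108 and CAAAATA, on the opposite strand, at -97. The pair forms the insulin response element known from this promoter. Among 32851 RefSeq promoter windows of the same length, CAAAACA or its complement was in 5.56%, CAAAATA in 3.95% and GTAAACA in 3.17%. The shorter core AAACA, which CAAAACA contains, was in 46.4% of all windows and appeared in those of Igfbp1, Igfbp6 and the second of the listed Igfbp2 starts. These are matches of letters, not measured binding, and no match says only that the letters are not in this window.

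The promoter windows of Igfbp1 and Igfbp3 also differed in base composition although both genes fell. Igfbp3 had 73.2% G and C with 32 CpG pairs, higher than 94.3% of all windows in G and C. Igfbp1 had 53.2% with 5 CpG pairs, close to the median of all windows (52.4%). Igfbp4 and Igfbp7 resembled Igfbp3, at 69.2% and 74.0% with 22 and 26 CpG pairs, and these genes moved in opposite directions.

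Igfbp7, a low-affinity member also found in vessel walls and basement membranes, was lower in Foxo1dd. It had 21.6, 19.8 and 22.7 FPKM in the controls and 7.84, 3.14 and 7.74 FPKM in Foxo1dd. The groups did not overlap, and the lowest value was that of Foxo1dd 2. The log2 change was -1.71 (SE 0.27, 3 samples per group, adjusted p = 0.000664 by limma), a 3.42-fold difference of the means, and without Foxo1dd 2 it was -1.34 (limma adjusted p = 6.13e-05). Igfbp7 spans chromosome 5, 77349240 to 77408041, on the minus strand. Exons of Polr2b, an RNA polymerase subunit gene on the other strand, cover 85 of its 1209 exonic bases (7.03%), and the strand setting of the counting is not given in the sources used here, so reads in that stretch cannot be assigned. Polr2b had 34.5 ± 5.34 FPKM in the controls and 27.9 ± 5.07 FPKM in Foxo1dd (SD, n = 3 each) and was not called (limma adjusted p = 0.159).

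Igfbp4 and Igfbp5, which are both abundant in connective tissue cells, moved the other way. Igfbp4, which restrains IGF action until pregnancy-associated plasma protein A cuts it, had 4.27, 4.73 and 6.36 FPKM in the controls and 19.5, 14.6 and 18.1 FPKM in Foxo1dd. All Foxo1dd samples were above all controls, with means 3.40-fold apart and a log2 change of 1.59 (SE 0.18, 3 samples per group, adjusted p = 7.57e-05 by limma). Without Foxo1dd 2 the log2 change was 1.71 (limma adjusted p = 8.49e-05). The gene lies on the plus strand of chromosome 11 (99041244 to 99054392), far from the pair of Igfbp1 and Igfbp3.

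Igfbp5, a matrix-bound member, was low in both genotypes. Its level was 0.462, 0.575 and 1.04 FPKM in the controls and 2.52, 1.39 and 2.10 FPKM in Foxo1dd, which equals about 247.2 to 518.9 and 615.9 to 1167.8 reads over its 6006 exonic bases. The groups did not overlap, although the highest control came close to the lowest Foxo1dd sample, again Foxo1dd 2. The log2 change was 0.82 (SE 0.23, 3 samples per group, adjusted p = 0.0125 by limma), and 1.43 with 0.1 FPKM added in place of 1. Leaving out single samples gave 0.70 to 0.98 with adjusted p up to 0.047 (limma), so the call is close to the threshold, and without Foxo1dd 2 the log2 change was 0.98.

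Igfbp2 and Igfbp6 were not expressed at a level that allowed a comparison. Igfbp2, a binding protein that also touches integrins through an RGD site, had 0.0160, 0.0140 and 0.0850 FPKM in the controls and 0.330, 0 and 0.116 FPKM in Foxo1dd. Igfbp6, which prefers IGF2, had 0.400, 0 and 0.431 FPKM in the controls and 0.141, 0 and 0.730 FPKM in Foxo1dd. Both genes overlapped between the groups, and each was listed at 0 in Foxo1dd 2. In read numbers the values were uneven within a group, Igfbp6 reaching about 39.6 reads in Foxo1ff 1 and Foxo1ff 3 but 0 in Foxo1ff 2. With no minimum on the level, the log2 change of Igfbp2 was 0.14 (95% interval -0.11 to 0.39, limma adjusted p = 0.36). That of Igfbp6 was -0.01 (95% interval -0.59 to 0.57, limma adjusted p = 0.985).

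Igfbp2 and Igfbp5 are also neighbours that point at each other, on chromosome 1 with 5.46 kb between their ends (72824503 to 72852474 on the plus strand and 72857932 to 72874884 on the minus strand). In this pair Igfbp5 rose and Igfbp2 stayed below the minimum, while both genes of the pair on chromosome 11 fell. Igfbp6 is alone on chromosome 15 (102144362 to 102149511, plus strand).

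The order of the members changed with the genotype. In Foxo1ff it ran from Igfbp3 to Igfbp7 and Igfbp1 (means of 21.3 and 19.0 FPKM), whose ranges overlapped, then Igfbp4 and Igfbp5 (0.694 FPKM), and last Igfbp6 (0.277 FPKM) and Igfbp2 (0.0383 FPKM), whose ranges overlapped. In Foxo1dd Igfbp3 (19.9 FPKM) and Igfbp4 (17.4 FPKM) had overlapping ranges, followed by Igfbp7 (6.24 FPKM) and Igfbp5 (2.00 FPKM). Igfbp6 and Igfbp2 overlapped near 0, and Igfbp1 came last by its mean. Igfbp3 exceeded Igfbp4 by 924 to 1573 times in the controls and by 1.28 and 1.74 times in Foxo1dd 1 and 2, while in Foxo1dd 3 Igfbp4 was the higher of them (ratio 0.520).

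The 7 genes summed to 6765, 6103 and 5926 FPKM in the control samples and to 55.4, 44.5 and 38.1 FPKM in the Foxo1dd samples. That sum was 0.913% to 1.10% of all FPKM in the control libraries and 0.00676% to 0.00996% in the Foxo1dd libraries. Nearly the whole of the control sum was Igfbp3, at 99.2% to 99.4%. The other 6 genes together had 46.5 ± 2.40 FPKM in the controls and 26.1 ± 6.07 FPKM in Foxo1dd (SD, n = 3 each), with ranges of 43.7 to 48.0 and 19.1 to 30.4 FPKM that did not overlap.

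**Figure D2:**
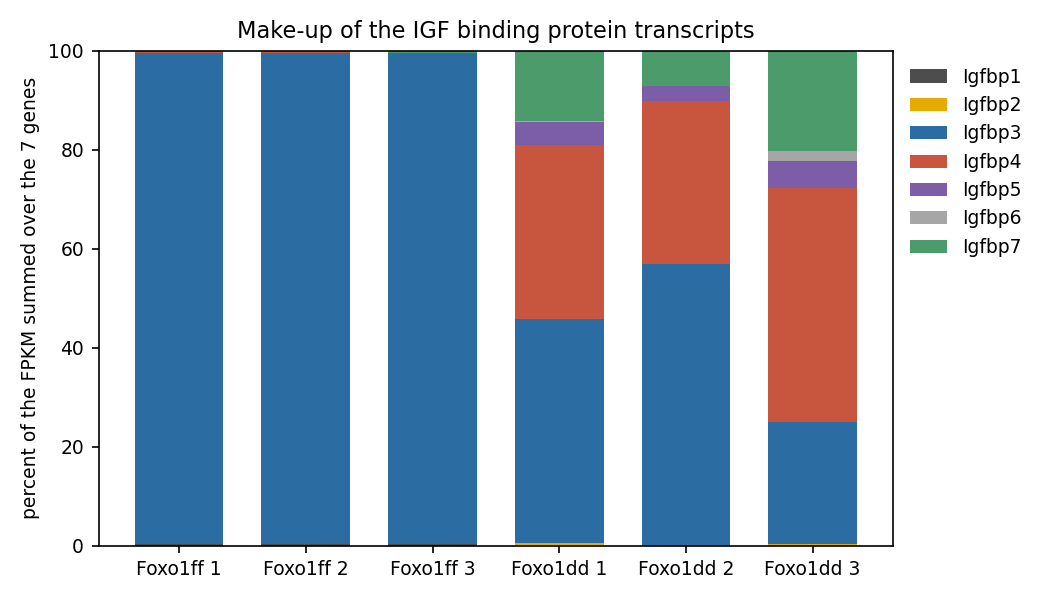
Bars show, for each sample, the percent of the FPKM summed over the 7 genes that each gene makes up. Igfbp3 takes 99.2% to 99.4% in the Foxo1ff samples, and in the Foxo1dd samples 24.6% to 57.0%, with Igfbp4 at 32.8% to 47.3% and Igfbp7 at 7.06% to 20.3%.

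Igfbp4 and Igfbp5 are abundant in stroma, so stromal transcripts were read beside them. Of 16 stroma and decidua markers 11 were tested, 3 rose (Col3a1, Sparc and Nr2f2) and 0 fell. That was 27.3% of those tested, against 56.4% of all tested genes. The summed level of the 16 was 41.0 to 46.2 FPKM in the controls and 43.4 to 64.2 FPKM in Foxo1dd. Nr2f2 was the largest part of that sum (20.7 to 23.3 against 25.0 to 31.4 FPKM). Among the defining markers Pdgfra (0.363 to 0.696 against 0.151 to 0.611 FPKM) and Lum (0.0320 to 0.362 against 0 to 0.862 FPKM) overlapped between the groups, and the decidual Prl8a2 was listed at 0 in every sample. Endothelial markers, of interest for Igfbp7, summed to 6.24 to 7.72 FPKM in the controls and 5.89 to 7.76 FPKM in Foxo1dd, with 1 of 11 tested, Egfl7, which fell and made up most of the control sum. Without Egfl7, left out after its values were seen, the other 10 summed to 2.11 to 2.42 FPKM in the controls and 3.54 to 5.30 FPKM in Foxo1dd. Pecam1, Cdh5, Esam and Vwf, all below the minimum, were higher in every Foxo1dd sample than in any control (Pecam1 0.0650 to 0.128 against 0.179 to 0.227 FPKM). Eng, also below the minimum, was lower in every Foxo1dd sample (0.364 to 0.568 against 0.0380 to 0.270 FPKM). Kdr, Tek, Tie1, Emcn and Cldn5 were below the minimum and overlapped between the groups. In bulk samples fewer cells of a type and less RNA per cell cannot be told apart. The part of other cell types in the Igfbp4, Igfbp5 and Igfbp7 changes was not tested.

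Among 8 measured glandular markers, 5 were tested and all of these were called, against 56.4% of all tested genes. Spink1, Prss28 and Prss29 fell, Sox9 and Lif rose, and the summed level was 53.2 to 214 FPKM in the controls and 7.32 to 27.9 FPKM in Foxo1dd. Most of the control sum was Spink1 (44.2 to 178 FPKM), and most of the Foxo1dd sum was Sox9 (6.29 to 22.9 FPKM). The gland-defining Foxa2 was low in both groups (0.643 to 1.36 and 0.399 to 0.908 FPKM). Leukocyte markers summed to 56.4 to 105 and 83.5 to 98.2 FPKM (7 of 10 tested fell, and Cd68 and Laptm5 rose). Of the 10 tested 90.0% were called, against 56.4% of all tested genes. Laptm5 had 2.73 to 5.78 FPKM in the controls and 53.2 to 70.7 FPKM in Foxo1dd, and without it, left out after its values were seen, the other 12 summed to 50.6 to 101 and 23.5 to 30.2 FPKM. Smooth muscle markers summed to 3.41 to 6.04 and 5.34 to 7.01 FPKM, and of 3 tested 33.3% were called. Myl9 rose (0.412 to 0.714 against 1.57 to 2.25 FPKM), and Des and Tagln were not called. Mesothelium markers summed to 28.8 to 39.4 and 0.464 to 1.37 FPKM. Nearly all of the mesothelium sum in the controls was Msln, which was at most 0.0900 FPKM in Foxo1dd. Upk3b (0.339 to 1.85 against 0.385 to 0.866 FPKM) and Wt1 (0.170 to 0.665 against 0.0790 to 0.457 FPKM) overlapped between the groups. The part of these cells in the falls was not tested.

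The rest of the IGF system was followed through 5 lists ordered by role. Of their 74 measured genes, 43 were tested, 13 rose and 14 fell (62.8% of those tested against 56.4% of all tested genes), with a median log2 change of 0.02 beside -0.15 for all tested genes. Without Foxo1dd 2, 16 rose and 13 fell, without Foxo1dd 3, 13 rose and 16 fell. The split was 17 higher and 13 lower with quantile normalization, and likewise with median-of-ratios scaling. The IGF ligands were scarce. Igf1 had 0.632 to 1.38 FPKM in the controls and 0.611 to 1.67 FPKM in Foxo1dd, Igf2 at most 0.0520 FPKM, and Ins1 and Ins2 were listed at 0 in every sample.

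Of the receptor genes, Igf1r and Igf2r fell. Igf1r, the signalling receptor of both IGFs, had 33.3, 22.8 and 18.8 FPKM in the controls and 13.3, 6.96 and 11.5 FPKM in Foxo1dd, giving a log2 change of -1.17 (SE 0.26, 3 samples per group, adjusted p = 0.00422 by limma). Igf2r, which takes IGF2 into lysosomes, had 33.2, 22.9 and 20.4 against 12.8, 11.7 and 13.8 FPKM, giving a log2 change of -0.92 (SE 0.18, adjusted p = 0.00244 by limma). Neither pair of groups overlapped. The insulin receptor gene Insr, at 15.8 ± 2.66 and 12.1 ± 2.62 FPKM (SD, n = 3 each), was not called (log2 change -0.37, 95% interval -0.80 to 0.06). Igfals, the partner that holds IGFBP3 and IGFBP5 in serum complexes, was listed at 0 in 5 of the 6 samples, and the insulin receptor-related Insrr in all 6.

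Adaptors and kinases behind the receptor went both ways, with 4 of 14 higher, 5 lower and a median log2 change of -0.08. The share called was 64.3%, against 56.4% of all tested genes. The regulatory PI3-kinase subunits Pik3r3 and Pik3r1 had log2 changes of 2.83 and 1.35, from 3.32 to 29.7 and from 15.0 to 39.4 FPKM. The docking protein gene Irs1 rose from 1.61 to 4.55 FPKM and the adaptor gene Grb2 from 48.8 to 77.7 FPKM. Irs2, a known FOXO target, was at 0.238 to 0.710 FPKM in the controls and listed at 0 in each Foxo1dd sample, below the minimum. The genes that fell were Shc1, Grb14, Pik3ca, Pik3r2 and Akt1, with log2 changes of -0.58, -1.51, -0.72, -0.42 and -0.49. Grb14 (3.63 and 0.754 FPKM) passed the minimum only through its Foxo1ff level. The call of Pik3r2 (limma adjusted p = 0.0424) was lost under median-of-ratios scaling (0.082) and without Foxo1ff 1 (0.0977), Foxo1ff 2 (0.152), Foxo1dd 1 (0.11) or Foxo1dd 2 (0.111), and its adjusted p ran from 0.0118 to 0.152 over 16 alternatives, with a log2 change of -0.56 to -0.26.

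Proteases that can cut IGF binding proteins, with their inhibitors, had 6 of 15 tested genes higher and 3 lower (median log2 change 0.37). The share called was only slightly above the 56.4% of all tested genes, but some of the largest changes in the 5 lists were among them. Mmp7, or matrilysin, which can cleave several of the binding proteins, fell, with 498, 1008 and 1121 FPKM in the control samples but 2.15, 2.35 and 0.633 FPKM after deletion, and had a log2 change of -8.32 beside the -8.33 of Igfbp3. Mmp7 lies on the chromosome of the Cre insertion, which only the Foxo1dd group carries, and any bearing of this on its fall was not tested. Ctsd, the aspartic protease cathepsin D, rose from 1190 ± 138 to 10593 ± 1239 FPKM (SD, n = 3 each), and Plat, the tissue plasminogen activator, from 5.12 ± 3.54 to 157 ± 42.8 FPKM. Plau, the urokinase gene, fell from 2.99 to 0.172 FPKM. Stc1, whose product inhibits the pappalysin proteases, had 0.0300, 0.0330 and 0.323 FPKM in the controls. In Foxo1dd it had 20.7, 9.72 and 11.9 FPKM, giving a log2 change of 3.69, or 6.12 with 0.1 FPKM added. Stc1 passed the minimum only through its Foxo1dd level, and Plau only through its Foxo1ff level.

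The pappalysins themselves were nearly undetected, Pappa at no more than 0.0320 FPKM and Pappa2 listed at 0 throughout. Mmp14, Timp1 and Timp3 rose (log2 changes of 0.64, 1.64 and 2.45) and Timp2 fell (-1.16). Htra1, a secreted serine protease with its own IGF binding protein-like module, had 4.10 ± 2.24 and 7.02 ± 1.74 FPKM (SD, n = 3 each) and was not called (log2 change 0.73, 95% interval 0.00 to 1.45, limma adjusted p = 0.0815). It was called without Foxo1dd 2 (log2 change 0.92, limma adjusted p = 0.0435) and without Foxo1ff 1 (1.05, limma adjusted p = 0.0161), whereas without Foxo1ff 2 the log2 change was 0.38 (limma adjusted p = 0.283). Over 16 alternatives, of which 6 gave a call, the log2 change ran from 0.38 to 1.33 and the adjusted p from 0.00295 to 0.283.

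Genes of proteins that share the amino-terminal module of the family but bind IGFs weakly were led by Ctgf and Cyr61, also known as Ccn2 and Ccn1. Ctgf had 37.6, 12.0 and 28.9 FPKM in the controls and 573, 524 and 538 FPKM in Foxo1dd, giving a log2 change of 4.47 (SE 0.33, 3 samples per group, adjusted p = 7.22e-06 by limma). Cyr61 had 16.3, 9.42 and 6.44 against 65.8, 51.9 and 28.1 FPKM, giving a log2 change of 2.09 (SE 0.35, adjusted p = 0.000936 by limma). In Foxo1dd the Ctgf level of 545 ± 25.3 FPKM (SD, n = 3) exceeded the sum of the 7 members, 46.0 ± 8.73 FPKM. The other 7 genes of this list in the table were below the minimum, among them Esm1, at 0.725 to 1.22 FPKM in the controls and listed at 0 in Foxo1dd.

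Of 9 tested surface and nuclear partners of the binding proteins 1 rose and 4 fell (55.6% called, against 56.4% of all tested genes). Tmem219, which encodes a proposed receptor of IGFBP3, rose from 16.0 to 25.7 FPKM (log2 change 0.65). The integrin subunit genes Itgb1 and Itgav, whose products meet RGD sites, fell with log2 changes of -0.87 and -0.91. Tgfbr1, a transforming growth factor receptor gene, and Kpnb1, the importin beta gene that carries IGFBP3 and IGFBP5 into the nucleus, fell with log2 changes of -0.54 and -1.39.

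**Figure D3:**
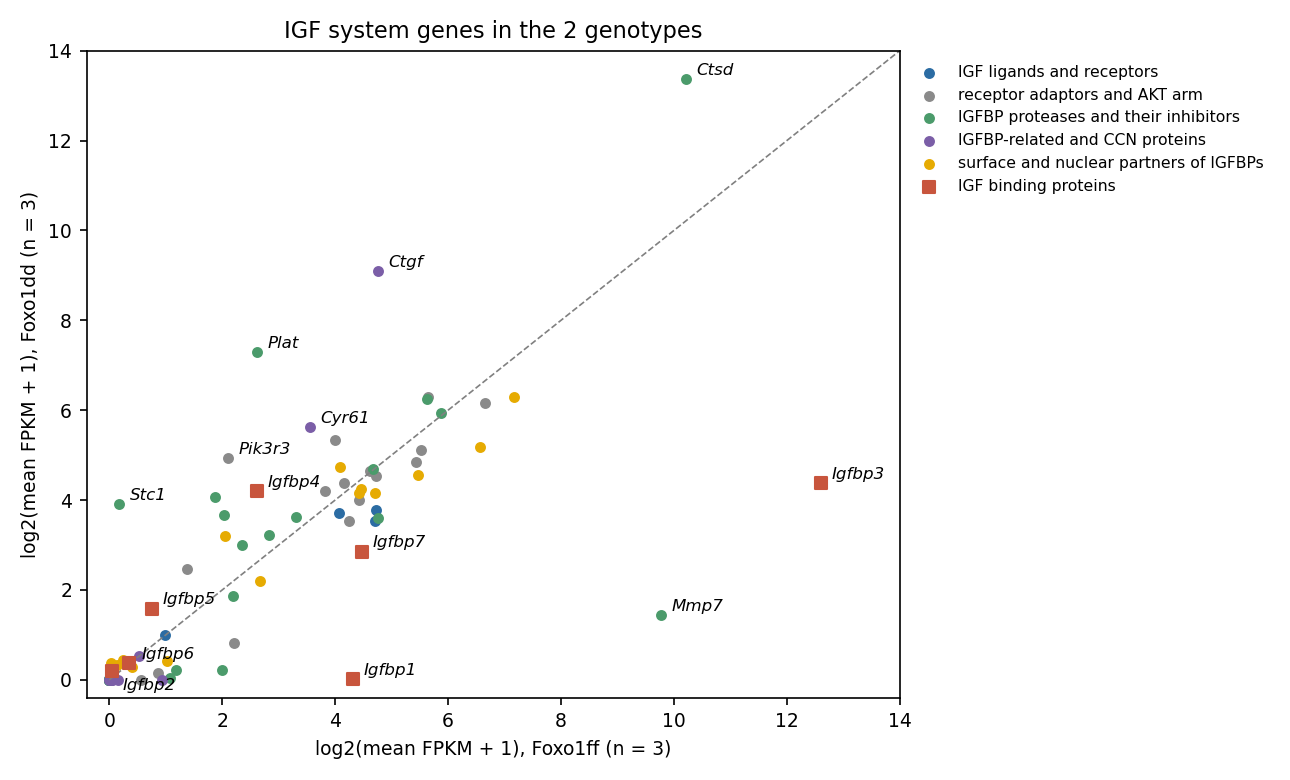
Each point is 1 gene, with log2(mean FPKM + 1) in Foxo1ff on the horizontal axis and in Foxo1dd on the vertical axis (n = 3 each), coloured by role, and the dashed line marks equal levels. Igfbp3 (6218 against 19.9 FPKM), Mmp7 and Igfbp1 lie far below the line, and Ctgf, Plat and Stc1 lie far above it.

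For each tested member the 3 genes with the most similar profile were found by Euclidean distance between log2(FPKM + 1) values centred on their mean over the 6 samples. A difference between the genotypes that a gene shares with the member counts fully toward this likeness. Nearest to Igfbp3 were Mmp7, Atp6v0d2 and Rnase1 (distances 1.08, 1.20 and 1.24), and nearest to Igfbp1 were Pcsk6, Bhlha15 and Slc10a2 (0.346, 0.375 and 0.441). Igfbp7 was followed most closely by Zfp52, Tspan6 and Tmem213 (0.206, 0.364 and 0.373), Igfbp4 by Trim12c, Nudt7 and Arl6ip5 (0.251, 0.285 and 0.328), and Igfbp5 by Slc25a16, Efcab2 and Lmo2 (0.189, 0.223 and 0.254). The distance grows with the size of a change, so distances are not compared between members.

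The nearest annotated protein-coding genes on either side that did not overlap the member were read in the same table. Polr2b, which overlaps Igfbp7 and was not called, is given above and left out here. Of the 4 outside the family that were tested beside a tested member, 1 was called in the direction of its member (Noa1) and 3 were not called. Among all tested genes 56.4% were called, 34.2% lower and 22.2% higher, so a count this small says little about the loci. Beyond Igfbp3, Tns3, 1218 kb away, had 36.6 and 42.9 FPKM (log2 change 0.22) and was not called, except with array weights (log2 change 0.41, limma adjusted p = 0.0249, in a range of 0.0249 to 0.711 over 16 alternatives). On the far side of Igfbp1, Gm11985 was listed at 0, as was Tnp1 beyond Igfbp5. Beside Igfbp4, Top2a, 17.1 kb away, had 32.0 and 36.3 FPKM and was not called, and Tns4, 11.3 kb away, had 0.303 and 1.60 FPKM, below the minimum. Spryd3, 8.13 kb from Igfbp6, had 22.8 and 19.0 FPKM, and Adgrl3, 3612 kb from Igfbp7, had 2.73 and 3.04 FPKM, both not called. Noa1, 39.2 kb from Igfbp7, fell as Igfbp7 did, from 32.6 to 11.5 FPKM (log2 change -1.43, limma adjusted p = 2e-05). Rpl37a, 111 kb from Igfbp2, fell from 641 to 411 FPKM (log2 change -0.61, limma adjusted p = 0.0211), a call lost without Foxo1ff 2 (0.0826), Foxo1ff 3 (0.0796) or Foxo1dd 3 (0.0537) and under median-of-ratios scaling (0.0808), with adjusted p from 0.000433 to 0.0826 over 16 alternatives.

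**Figure D4:**
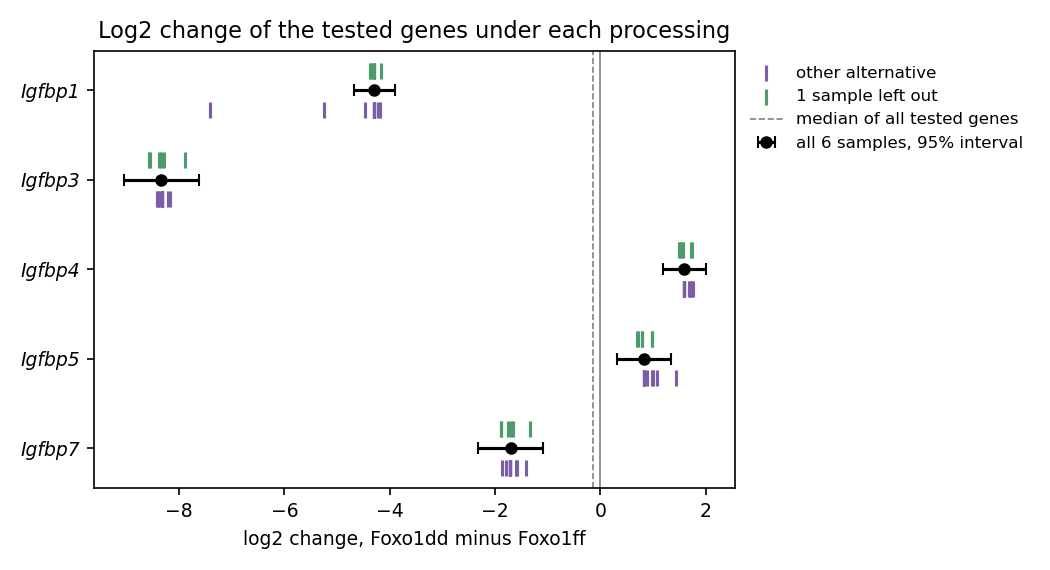
The horizontal axis is the log2 change (Foxo1dd minus Foxo1ff) of the 5 tested genes, with black points and bars for the fit to all 6 samples and its 95% interval, and short ticks for each alternative. No tick crosses 0, and the spread is widest for Igfbp1 (-7.42 to -4.17).

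The depth of these libraries placed the higher members well above single reads. Igfbp3 corresponded to about 1521206.4 to 1874211.3 reads in Foxo1ff and 2494.8 to 6049.8 reads in Foxo1dd, and Igfbp4 to 1681.0 to 6770.6 reads over the 6 samples. These numbers rest on annotated exon lengths and on reads without molecular identifiers, which are not independent molecules.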

How the data were processed

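RNA-seq was made from 6 samples of luminal epithelium, 3 per genotype, grouped by their titles. The deposited table holds FPKM values computed by the authors, per the file headers and name. The submitters' processing notes name, without saying what each did, DESeq2 1.12.4, edgeR 3.28.0, Subread, featureCounts 1.5.0-p1 and STAR 2.5.2b, with build mm10. For annotation, gene lengths, strand setting and multi-mapped reads the method is not given in the sources used here. Columns were tied to samples by title.

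FPKM values are not counts, so log2(FPKM + 1) was tested with limma 3.58.1 in R 4.3.3 (trend in eBayes, genotype as the only term) for genes averaging 1 FPKM or more. The test was checked on simulated data. Exact permutation of 3 against 3 samples was not used. The FPKM worth of a read was the commonest low value of FPKM times length among microRNA and small nucleolar RNA genes, and of the values under 10 reads, 90.9% to 100% lay within 0.05 of a whole read (only 22 such values in Foxo1dd 2). Positions are from GENCODE M21 (GRCm38), which holds 24423 of the 24964 symbols, and promoters are from RefSeq GRCm38.p6 (all 7 genes matched, 8 starts). The genes and lists were chosen with earlier results of these data known. Named genes are the 7 members, Foxo1, Pgr, list members, flanking genes and the 3 nearest profiles per member, and Polr2b and Rn45s were added after their values were seen.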

Additional observations from a re-analysis of the deposited data

How the results depend on the processing

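The 16 alternatives, all planned, were other pseudocounts, filters, scalings, variance models and sample weights, a replicate block, and leaving out each sample. Igfbp1, Igfbp3, Igfbp4 and Igfbp7 kept their direction and call under each of them, with adjusted p (limma) at most 6.42e-05, 7.68e-05, 0.00112 and 0.00664, and Igfbp5 under the 15 that could test it (at most 0.047), since a minimum mean of 5 FPKM leaves it out. The difference of Igfbp2, which was not tested, was 0.64 with a pseudocount of 0.1, against 0.14. Median-of-ratios scaling shifted the median of all tested genes from -0.15 to -0.03 and quantile normalization to 0.00, and the calls over all genes ran from 5115 to 7481 against 6445. Among flanking genes that were not called, Top2a turned from 0.09 to -0.15 with array weights, -0.18 without Foxo1ff 1 and -0.36 without Foxo1dd 3, and Adgrl3 from 0.14 to -0.04 without Foxo1dd 1 (leaving out single samples gave -0.36 to 0.41 and -0.04 to 0.41). The cause was not tested. The labels of same-numbered samples share only a number, so whether the samples were paired is not known. Their deviations from the group means had r = 0.12, 0.11 and -0.13 across genes, and not every sample correlated best with its own number. With 3 samples per group these correlations cannot exclude pairing. With the replicate block 6141 genes were called, 28 genes of the IGF lists against 27, the log2 changes of the 5 tested members were as before, Pik3r2 was not called (adjusted p = 0.0689) and Htra1 was (0.016, limma). Depth limits Igfbp1 in Foxo1dd, at 0 to about 2.0 reads.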
